A study of Mus musculus with 9 samples.

Results

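Srrm4 was knocked down in N2A cells, a mouse neuroblastoma line with neuronal features, and the 2 resulting libraries (siSrrm4 a and b) were compared with 2 control libraries (siNT a and b). The 4 libraries are 4 of the 9 in the series and were chosen by their labels. Cells of the knockdown group were transfected with a pool of small interfering RNAs against Srrm4, and cells of the control group with a non-targeting pool. Both groups were harvested 48 hours later, and polyA RNA was sequenced. A further pair of libraries from the same experiment, with Zfp871 knocked down by a pool (siZfp871 a and b), entered the fits so that 3 groups of 2 share an estimate of the spread. All groups are transient knockdowns in a cultured tumour line, without genetic deletion. Whether a and b were grown as separate cultures is not given, so the p-values here describe the spread of these libraries, part or all of which may be technical. RNA was extracted with either of 2 methods, TriZol or RNeasy, and which library had which is not given.

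Srrm4 (also called nSR100) is a serine/arginine-rich splicing activator found in neurons and neuroendocrine cells. It binds the intron just upstream of short alternative exons and recruits the splicing machinery to them, and it is best known for the inclusion of microexons, exons too short to be defined well by the general machinery. Microexons usually keep the reading frame, and they insert a few residues into proteins of vesicle traffic, the cytoskeleton and GTPase signalling. Inclusion is given here as PSI (percent spliced in), computed per library as inclusion reads over inclusion plus exclusion reads and so the percentage of a gene's transcripts that keep the exon. Microexons are defined here as exons of 3 to 27 nt.

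The sequences below show how short these insertions are. Most belong to the exons whose inclusion fell most. Clasp1 is shown for its likeness to Clasp2, Eif4g1, Mef2d and Apbb1 as known targets, and Col4a1 for a length that breaks the frame. The sequences come from GENCODE M21 transcripts (GRCm38), matched by gene, exon length and both neighbouring intron lengths. Coordinates are those of the deposited files (mm9). Capitals mark the exon, and the lower case letters are 12 bases of the exon before and after it, all 5′ to 3′ on the transcript.
Dync2h1 21-nt exon, chr9:7045349-7045369 (minus strand): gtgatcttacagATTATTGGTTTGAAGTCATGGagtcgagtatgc
Clasp2 24-nt exon, chr9:113787868-113787891 (plus strand): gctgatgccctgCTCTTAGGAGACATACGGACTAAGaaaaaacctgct
Clasp1 24-nt exon, chr1:120438252-120438275 (plus strand): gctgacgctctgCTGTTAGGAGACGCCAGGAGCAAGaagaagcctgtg
Vav2 15-nt exon, chr2:27140359-27140373 (minus strand): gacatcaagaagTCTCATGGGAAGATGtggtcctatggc
Vav2 15-nt exon, chr2:27155950-27155964 (minus strand): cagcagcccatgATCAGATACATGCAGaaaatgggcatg
Daam1 27-nt exon, chr12:73059734-73059760 (plus strand): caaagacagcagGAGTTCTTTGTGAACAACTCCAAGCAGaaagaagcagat
Git2 6-nt exon, chr5:115203157-115203162 (minus strand): gagggcagacagACGGCTcagcctggattt
Dock4 27-nt exon, chr12:41521184-41521210 (plus strand): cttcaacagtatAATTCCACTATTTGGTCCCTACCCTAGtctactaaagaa
Snx14 27-nt exon, chr9:88295561-88295587 (minus strand): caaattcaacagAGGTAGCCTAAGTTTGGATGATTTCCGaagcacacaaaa
Camta2 21-nt exon, chr11:70484393-70484413 (minus strand): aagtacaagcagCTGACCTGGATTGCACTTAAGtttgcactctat
Pacsin2 6-nt exon, chr15:83214053-83214058 (minus strand): ccacagtttgagGATGAAgagtggtctgca
Synj1 24-nt exon, chr16:90971809-90971832 (minus strand): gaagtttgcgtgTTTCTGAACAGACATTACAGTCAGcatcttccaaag
Myo5a 9-nt exon, chr9:75035329-75035337 (plus strand): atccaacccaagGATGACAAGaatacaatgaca
Kif1b 18-nt exon, chr4:148639454-148639471 (minus strand): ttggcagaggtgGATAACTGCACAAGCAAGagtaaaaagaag
Bbs9 15-nt exon, chr9:22452464-22452478 (plus strand): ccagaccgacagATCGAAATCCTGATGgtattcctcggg
Eif4g1 21-nt exon, chr16:20674859-20674879 (plus strand): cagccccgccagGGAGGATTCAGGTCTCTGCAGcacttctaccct
Mef2d 21-nt exon, chr3:87965703-87965723 (plus strand): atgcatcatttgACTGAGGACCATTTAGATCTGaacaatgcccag
Apbb1 6-nt exon, chr7:112714460-112714465 (minus strand): ggacagtggaagAGAGAGggactttgccta
Col4a1 17-nt exon, chr8:11204536-11204552 (minus strand): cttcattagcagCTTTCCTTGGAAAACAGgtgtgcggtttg
The 24-nt exons of Clasp1 and Clasp2, which encode related microtubule plus-end proteins, carry the same base at 17 of 24 positions. The exons of Git2, Pacsin2 and Apbb1 are 6 nt, or 2 codons, and that of Col4a1 is the only exon printed whose length is not a multiple of 3.

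The targeted transcript was lower in both knockdown libraries. Srrm4 (ENSMUSG00000063919) stood at 66.8 and 96.7 CPM (counts scaled to the library total) in the control libraries a and b and at 28.3 and 26.1 in the knockdown libraries, a log2 fold change of -1.59 (SE 0.19, n = 2 per group, edgeR adjusted p = 0.0222). The call was lost without control library b (edgeR adjusted p = 0.0818) and without knockdown library b (edgeR adjusted p = 0.152). Total counts were 45633036 and 48505982 in control and 44186088 and 61159670 in knockdown, and the median number of reads per tested exon was 118 to 156 per library. The cell line's own markers were present: all 14 neuroblastoma or neuronal markers passed the count filter, with a summed level of 5437 to 6476 CPM per library, against at most 16.2 CPM for the glial, mesenchymal, epithelial or immune markers that passed it (2 of 9, 4 of 10, 2 of 6 and 1 of 6).

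The cassette exons called were almost all included less often in the Srrm4 knockdown. Of 20266 tested exons in 6910 genes, 158 were called lower and 11 higher by the edgeR quasi-likelihood test with a dispersion per exon (Benjamini-Hochberg adjusted p under 0.05 and a mean difference of at least 10 PSI points), which is 0.78% and 0.0543% of those tested, or 0.834% in either direction. The count depends on how the spread between libraries is modelled. With the edgeR default of a common dispersion and a trend, a setting added after seeing the data, 25 were called lower and 0 higher, all 25 among the 158. With limma on log ratios 75 were called lower, again all among the 158, and 0 higher. With the edgeR likelihood ratio test 227 were called lower and 55 higher. With a common dispersion without trend 0 were called, while 1780 exons had an unadjusted p under 0.05 in the test with a dispersion per exon. In each of the 158 both knockdown libraries lay below both controls, as a call nearly requires; groups did not overlap for 33.0% of all tested exons. The authors' deposited table marks 138 of the 158 and 8 of the 11 as differential, all with the same direction, against 1.53% of all exons tested here. It marks 311 of the tested exons, of which 146 were called here. The marks come from the same experiment, so this overlap is not independent support. The smallest called difference was 10.1 points, and the largest among exons with an adjusted p under 0.05 that fell short of 10 points was 8.99.

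**Figure D1:**
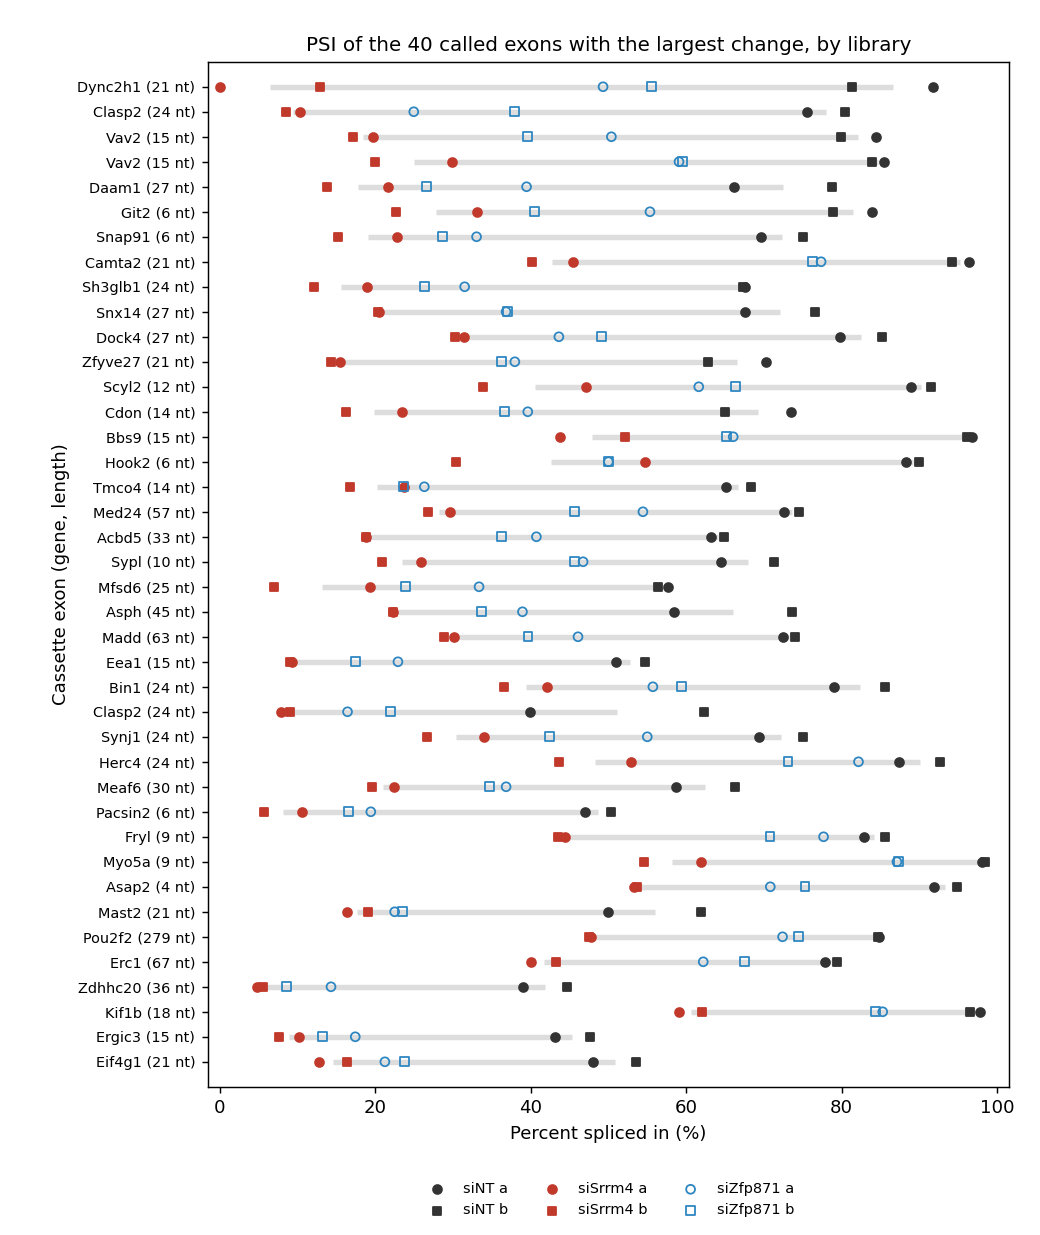
PSI in percent for the 40 called exons with the largest mean difference, each row an exon, with control libraries in black, Srrm4 knockdown in red and Zfp871 knockdown in open blue (circles for a, squares for b). The grey bar joins the control and Srrm4 knockdown means. In all 40 rows both red symbols lie left of both black symbols, with mean differences from -36.2 to -80.1 points.

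The lowered exons were mostly short and in frame. Of the 158, 95 were microexons, with a median length of 24 nt over all 158 against 109 nt for all tested exons. Their median PSI was 67.4% in control and 30.2% in the knockdown, 108 of the 158 were above 50% in control (15118 of all 20266 tested exons, whose median was 95.2%), and 34 fell under 10% in the knockdown. Lengths that are multiples of 3 made up 82.9% of the lowered exons against 40.8% of all tested exons, and 92.6% of the lowered microexons against 72.0% of the microexons that were not called. Of the 127 lowered exons matched to GENCODE M21, 114 (89.8%) lay wholly within coding sequence, against 81.2% of all matched exons. The median introns before and after a lowered exon were 1654 and 1426 nt (2021 and 2117 nt for all tested exons). Among microexons alone they were 1673 and 1403 nt for lowered and 1372.5 and 1590.5 nt for uncalled ones. Within that class the intron before a lowered exon was thus longer, not shorter. Base composition differed little: G and C made up 46.5% of the bases of matched lowered microexons and 48.4% of those of uncalled ones.

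The share of exons called lower fell steeply with length. It was 22.4% for exons of 3 to 15 nt (47 of 210), 16% for 16 to 27 nt (48 of 300), 1.78% for 28 to 51 nt (27 of 1516) and 0.197% for longer ones (36 of 18240). Among exons with a control PSI from 10% to 90%, which leaves room to move either way, the shares were 41.1%, 28%, 5.78% and 0.771%. The median number of reads per exon was 124, 120, 126 and 132 in the 4 length classes, and 153, 146, 124 and 109.5 among those with a control PSI from 10% to 90%, so in the latter the shorter classes were also read more deeply, and the part of depth in the shares was not tested. The median PSI difference over all 510 tested microexons was -2.59 points, and 72.9% of them lay below control, against 0.00 points and 46.6% for longer exons. The 1 microexon called higher was a 12-nt exon of Tmem209, from 82.5% and 82.8% in control to 91.6% and 94.5% in the knockdown.

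**Figure D2:**
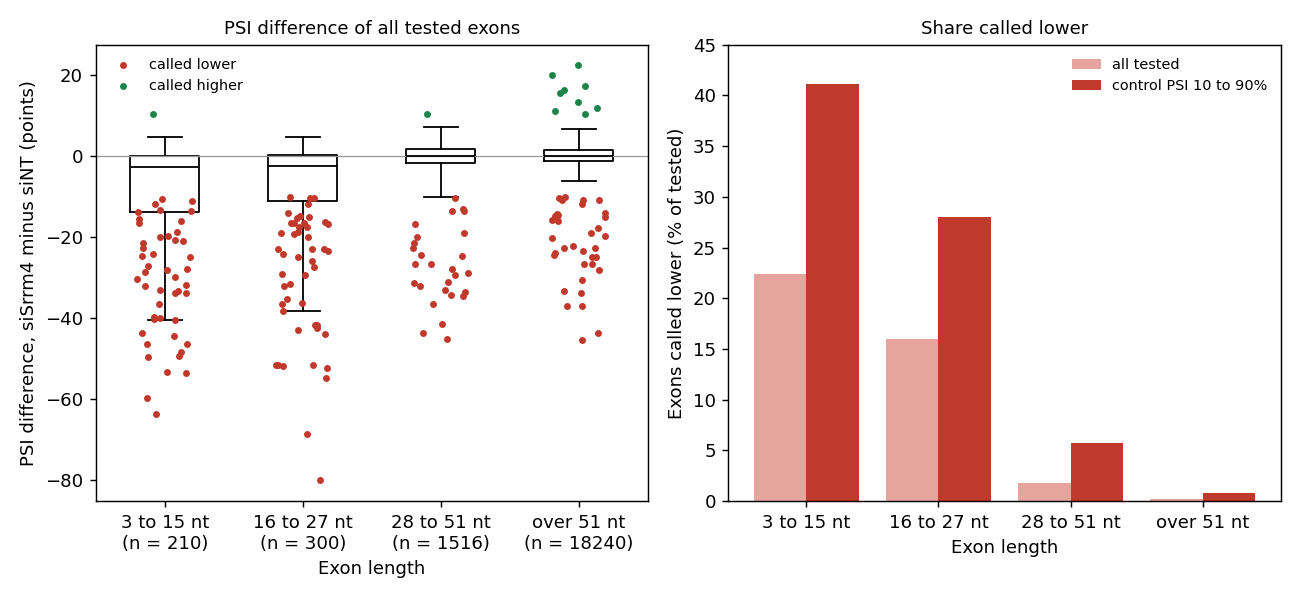
Left, PSI difference in points (Srrm4 knockdown minus control) by exon length, as boxes with the median, quartiles and 5th and 95th percentiles of all tested exons, and called exons as points. Right, the percentage of exons called lower in each class, for all tested exons and for those with a control PSI from 10% to 90%; the share falls from 22.4% at 3 to 15 nt to 0.197% above 51 nt.

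Several of the largest falls were in regulators of small GTPases. These are exchange factors, which switch small GTPases such as Rac, Arf or Rab on, and activating proteins, which switch them off. Of 29 tested microexons in genes of this list 12 were lower, as were 2 of 347 longer exons. Over all tested exons, the background for each list, 95 of 510 microexons (18.6%) and 63 of 19756 longer ones (0.319%) were lower. In Vav2, an exchange factor for Rac, both 15-nt exons printed above fell: the upstream one (chr2:27155950-27155964) stood at 85.5% and 83.9% in control and 29.9% and 20% in the knockdown, and the downstream one at 84.4% and 79.9% and 19.7% and 17.1%. Controls lay within 5 points of each other, and the knockdown libraries were over 50 points lower. The differences were -59.7 points (log2 odds -4.10, SE 0.48, edgeR adjusted p = 1.50e-14) upstream and -63.7 points (log2 odds -4.34, SE 0.51, edgeR adjusted p = 1.50e-14). The 27-nt exon of Dock4, a Rac exchange factor, went from 79.8% and 85.2% to 31.5% and 30.3%.

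In the Arf GTPase-activating scaffold Git2, the 2-codon exon went from 83.95% and 78.9% in the control libraries to 33.1% and 22.7% in the knockdown (-53.6 points, edgeR adjusted p = 3.57e-05). Its relative Git1 has a 27-nt exon that went from a mean of 93.2% ± 0.913 (SD, n = 2) to 67.3% ± 5.88. Both members of a related pair were called here, and likewise in Asap2 (4 nt, -39.8 points) and Asap1 (9 nt, -29.8 points), which encode Arf GTPase-activating proteins. Madd, an exchange factor for Rab GTPases of vesicles, lost a 63-nt exon, from 72.4% and 73.95% to 30.2% and 28.8%. The smallest change of the list was in Dock11 (18 nt), which was included in all transcripts read in both controls and stood at 90.8% and 88.4% in the knockdown (-10.4 points).

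Microtubule, motor and membrane skeleton genes had 12 of 40 tested microexons lower, and 7 of 309 longer exons. The Clasp2 exon printed above (chr9:113787868-113787891) was at 75.5% and 80.5% in control and 10.4% and 8.48% in the knockdown, a difference of -68.6 points (log2 odds -5.18, SE 0.63, edgeR adjusted p = 9.94e-14). Another 24-nt exon of the gene, at chr9:113767699-113767722, was at 39.9% and 62.3% and 7.90% and 9.10%. For this exon the controls were far apart, and its call did not hold in every fit with a library left out. In Clasp1 the 24-nt exon that resembles the first of these went from 89.9% ± 0.907 to 62.5% ± 1.63 (SD, n = 2), and a 27-nt exon from 39.3% ± 8.42 to 15.7% ± 0.394.

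Among motors, the 9-nt exon of Myo5a, a myosin that carries organelles along actin, was nearly always included in control (98.03% and 98.5%) and stood at 61.9% and 54.5% in the knockdown. The 18-nt exon of Kif1b, a kinesin of axonal transport, did likewise, from 97.8% and 96.6% to 59.1% and 62.1%. Both had tight replicates and passed the stricter common-dispersion test too (edgeR adjusted p = 0.00793 and 0.0278). Daam1, a formin that assembles actin filaments, had its 27-nt exon at 66.2% and 78.8% in control and 21.7% and 13.8% in the knockdown. The spectrin gene Spna2 (15 nt, -30.5 points), the ankyrin gene Ank2 (24 nt, -19.2) and the protein 4.1 genes Epb4.1l1 (36 nt, -34.5) and Epb4.1l3 (36 nt, -33.01), all of the membrane skeleton, fell as well.

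Endocytosis and vesicle traffic held the most lowered exons of any list, 14 of 39 microexons and 11 of 362 longer ones. Snap91, also called AP180, which assembles clathrin coats at synapses, had 5 lowered exons. Its 6-nt exon (chr9:86707915-86707920) fell most, from 69.7% and 75.1% in control to 22.8% and 15.2% in the knockdown (-53.4 points, edgeR adjusted p = 2.87e-12). The other 4, of 72 to 272 nt, fell by 17.9 to 26.6 points. Reads over junctions of neighbouring exons can be shared, so these 5 are not independent observations.

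The 24-nt exon of the endophilin gene Sh3glb1 had equal controls (67.5% and 67.3%) and stood at 18.99% and 12.1% in the knockdown. Synj1, the phosphoinositide phosphatase that uncoats vesicles, had a 24-nt exon at 69.4% and 74.98% and 33.98% and 26.7%. The 2-codon exon of Pacsin2, a membrane-bending F-BAR protein, went from 47.05% and 50.4% to 10.6% and 5.67%. The exon of the sorting nexin gene Snx14 (27 nt) was at 67.6% and 76.6% in control and 20.5% and 20.3% in the knockdown. In Bin1, or amphiphysin 2, a 24-nt and a 108-nt exon fell by 42.97 and 33.3 points. Both lie between the same neighbouring exons and can share reads, so they are not independent observations. Scyl2 (12 nt, -49.7 points), Ergic3 (15 nt, -36.5), Picalm (24 nt, -20.02), Unc13a (6 nt, -19.8) and Ap1s2 (9 nt, -13.6) were among the rest, and Eea1, an early endosome tether outside the list, lost a 15-nt exon (50.98% and 54.6% to 9.33% and 9.07%).

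The remaining lists held fewer lowered exons. Kinases, phosphatases and signalling scaffolds had 5 of 32 microexons lower, among them Ppfia1 (liprin-alpha 1), with 3 lowered exons of 27, 30 and 63 nt, and Ptk2 (focal adhesion kinase), with 2 of 18 and 21 nt. Adhesion molecules, receptors and channels had 4 of 20, of which 2 were in the cell adhesion gene L1cam (12 nt, -28.6 points, and 15 nt, -20.7 points). Transcription and chromatin genes had 3 of 16, namely Mef2a, Mef2d and Apbb1. Translation and RNA genes had 2 of 7, in the initiation scaffold Eif4g1 and the polyadenylation-element binding protein Cpeb4. For comparison, 95 of all 510 tested microexons (18.6%) were lower; these 4 lists stood at 15.6%, 20%, 18.8% and 28.6%, and the GTPase, endocytosis and cytoskeleton lists at 41.4%, 35.9% and 30%. The lists were chosen with earlier results known, and their differences from one another and from all microexons were not tested. In all, 78 of the 158 lowered exons belonged to a listed gene and 80 to none.

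**Figure D3:**
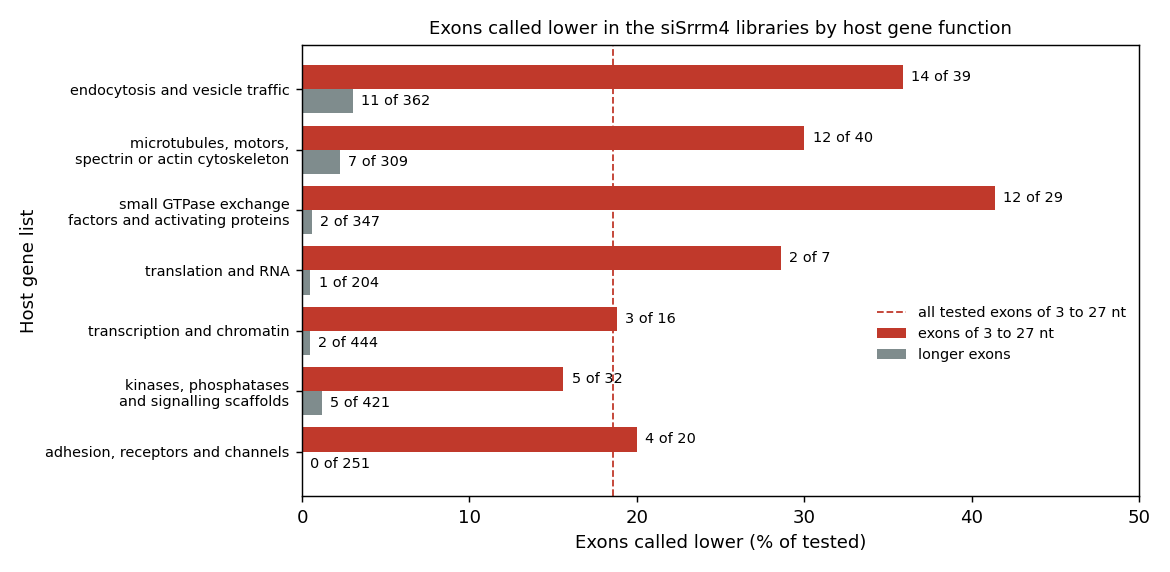
Percentage of tested exons called lower in the Srrm4 knockdown for 7 lists of host genes, for exons of 3 to 27 nt (red) and longer exons (grey), with counts beside each bar. The dashed line is the share over all tested microexons, 18.6%, and small GTPase regulators reach 41.4% (12 of 29). Over all tested longer exons the share is 0.319%.

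Among genes outside the lists, 2 of ciliary transport were high in the order of change. The 21-nt exon of Dync2h1, the heavy chain of the dynein that returns cargo along cilia, had the largest difference of all, -80.1 points, from 91.8% and 81.4% in control to 0% and 12.96% in the knockdown (edgeR adjusted p = 4.39e-06). It rests on few reads: the value of 0 comes from 25 reads and allows a PSI of up to 12% for counting error alone, and control library a had 10 reads. The authors' deposited table has no entry of TRUE for it. The 15-nt exon of Bbs9, a subunit of the BBSome coat of cilia, went from 96.8% and 96.1% to 43.7% and 52.1%. Other large changes were in Camta2, a calmodulin-binding transcription activator (21 nt, 96.3% and 94.2% to 45.5% and 40.1%), Zfyve27, or protrudin, which supports neurite outgrowth (21 nt, -51.6 points), Hook2, a dynein adaptor (6 nt, -46.5), the ubiquitin ligase gene Herc4 (24 nt, -41.8), Fryl (9 nt, -40.2) and the kinase gene Mast2 (21 nt, -38.2).

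Of the 158 lowered exons 63 were longer than microexons. Med24, a subunit of the Mediator complex, had a 57-nt exon at 72.6% and 74.5% in control and 29.6% and 26.8% in the knockdown. Acbd5, a peroxisomal acyl-CoA binding protein, had a 33-nt exon at 63.2% and 64.9% and 18.9% and 18.9%. In Meaf6, a subunit of histone acetyltransferase complexes, 3 exons fell, of 30 nt (-41.4 points), 58 nt (-25.03) and 34 nt (-24.5). Those of 30 and 58 nt lie between the same neighbouring exons, and that of 34 nt is the next exon. The 3 can share junction reads and are not independent observations. The longest exon of the 40 with the largest change was 279 nt, in Pou2f2, the transcription factor Oct-2 (84.9% and 84.6% to 47.8% and 47.5%), and Asph (45 nt, -43.8), Zdhhc20 (36 nt, -36.7) and Erc1 (67 nt, -36.98) followed. Of these 40, 32 were microexons and 15 were also called with a common dispersion. Among the 40, those in Cdon, Hook2, Mfsd6, Synj1 and the second Clasp2 exon did not stay called in every fit with a library left out. Over all 158 lowered exons, a call was lost in such a fit far more often than among these 40.

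In the 134 genes with a lowered exon, 462 other cassette exons were tested and not called. Their differences ran from -35.7 to 28.4 points with a median of 0.0, and 82.0% moved by under 5 points, near the 84.8% of all tested exons. In 115 genes 1 exon was lower and in 19 genes 2 or more, such as Cd47 (25 and 33 nt), Odz3 (21 and 27 nt) and Epb4.1l3 (36 and 66 nt). Exons of a gene can share junction reads, so several lowered exons in a gene need not be separate events.

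Exons known from the literature as Srrm4-dependent or as part of its regulatory circuit gave a mixed picture. The 21-nt exon of Eif4g1 (chr16:20674859-20674879) fell from 48.1% and 53.6% to 12.7% and 16.4% (edgeR adjusted p = 2.89e-14), and the 2-codon exon of Apbb1, an adaptor of the amyloid precursor protein, from 94.1% and 95.96% to 79.8% and 77.3%. The 21-nt exon of the transcription factor Mef2d stood at 88.7% and 93.9% in control and 76.1% and 76.6% in the knockdown (edgeR adjusted p = 0.0203). The 12-nt exon of Kdm1a, the histone demethylase LSD1, was rare already in control at 2.73% and 5.55% and stood at 1.07% and 0.860% (edgeR adjusted p = 0.115, not called). A 23-nt exon of Phf21a, a member of the LSD1 complex, stood at 52.6% and 55.2% and 49.96% and 39.4% (edgeR adjusted p = 0.745), and the 34-nt exon of the splicing repressor Ptbp2 at 90.9% and 88.2% and 92.1% and 92.7% (edgeR adjusted p = 0.701). Neither was called. Nova1, Ptbp1, Srrm3 and Srrm4 itself had tested exons with no call, the Elavl2 39-nt exon was at -10.5 points (edgeR adjusted p = 0.305), and no exon of Rest passed the filters.

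The 11 exons called higher were longer, with a median of 87 nt, and 5 had a length that is a multiple of 3. The 170-nt exon of Wasf3, an actin nucleation regulator, rose from 20.3% and 16.7% to 41.99% and 39.6% while a 176-nt exon of the same gene fell from 77.3% and 82.99% to 53.3% and 59.2%. The scaffold gene Dlg1 also held an exon in each direction (97 nt, 19.9 points, and 34 nt, -13.1 points), as did Arfgap1 (60 nt, 15.4, and 30 nt, -26.8). An 87-nt exon of Mapt, which encodes tau, rose from 26.7% and 29.9% to 38.4% and 40.1%. The rest were in Itga6, Mpzl1, Unc5c, 1700019N12Rik, Usp1 and Map2k7, at 10.4 to 17.1 points, and Tmem209. With each library left out in turn, 1 of the 11 stayed called every time.

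Most host genes of lowered exons were close to control in level. Of the 133 host genes of lowered exons that had enough counts to test, 4 were lower and 3 higher at an edgeR adjusted p under 0.05, or 3.01% and 2.26%, beside 3.29% and 1.41% of all 12378 tested genes. Their median log2 fold change was -0.03, and 92.5% lay within 1.5-fold of control. Of the hosts of all tested exons 90.4% did, and 4.11% were lower and 1.35% higher. In this fit the hosts of lowered exons thus lay near the background. Both the number called and its place beside the background depend on the test. With DESeq2 18 of the 133 were lower, beside 1049 of all 12378 genes, and with the edgeR likelihood ratio test 14, beside 785. In both of these the share of hosts was above that of all genes, a difference that was not tested. Across the 157 lowered exons with a tested host, PSI difference and host log2 fold change gave a Spearman correlation of -0.08 and a Pearson correlation of -0.13, given as a description since exons of a gene share its value and both measures share the libraries. For Clasp2, whose exon had a difference of -68.6 points, the gene stood at 85.1 and 116 CPM in control and 87.2 and 110.0 in the knockdown. Vav2 was at 72.4 and 91.4 and 79.1 and 93.1, and Kif1b at 240.5 and 290.2 and 239 and 270.1. In these 3 genes the groups overlapped.

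Genes whose exon and level both changed were few, and none of them kept the gene call without control library b or without knockdown library b. Bin1 fell from 156 and 132 CPM to 92.9 and 71.6 (log2 fold change -0.81, SE 0.15, edgeR adjusted p = 0.0400). Snap91 fell from 86.9 and 103 to 54.4 and 57.9 (-0.76, SE 0.11, edgeR adjusted p = 0.0282). Napb, a beta-SNAP protein that disassembles SNARE complexes, fell most, from 69.2 and 70.2 to 26.99 and 18.4 (-1.62, SE 0.19, edgeR adjusted p = 0.0222), and its lowered exon is 47 nt, not a multiple of 3. Cstf2, a polyadenylation factor, fell by 0.40 on the log2 scale, beside a 60-nt exon at -22.2 points.

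The 3 hosts that rose were Col4a1, Cdon and Tmco4, and in each the lowered exon was a microexon whose length is not a multiple of 3. The 17-nt exon of the collagen gene Col4a1 (chr8:11204536-11204552) went from 22.3% and 28.5% to 3.17% and 1.59%, and the gene from 192 and 214 CPM to 592 and 793 (log2 fold change 1.77, SE 0.16, edgeR adjusted p = 0.0184). Cdon, a Hedgehog co-receptor, had its 14-nt exon at 73.5% and 64.9% and 23.5% and 16.3% and its level at 12.8 and 14.5 and 33.4 and 29.1 CPM (1.20, SE 0.15). Tmco4, with a 14-nt exon at 65.1% and 68.3% and 23.7% and 16.8%, was at 10.6 and 8.97 and 20.4 and 16.8 CPM (0.93, SE 0.16). By frame, 3 of 115 hosts of lowered exons with a length that is a multiple of 3 were lower and 0 higher, while of 24 hosts of other lowered exons 2 were lower and 3 higher, and 95.7% and 75% of the hosts lay within 1.5-fold. The sets share genes that hold lowered exons of both kinds, among them Snap91, counted as lower in each. The difference between these sets was not tested. Of the 11 hosts of exons called higher 0 passed the edgeR test in either direction. Wasf3 stood at 60.1 and 57.2 CPM in control and 44.1 and 37.2 in the knockdown (log2 fold change -0.53, edgeR adjusted p = 0.0532). Mapt was at 92.9 and 73.9 and 69.9 and 52.01 (-0.45, edgeR adjusted p = 0.182). In both genes the groups did not overlap, as held for 53.7% of all tested genes, and neither was called.

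**Figure D4:**
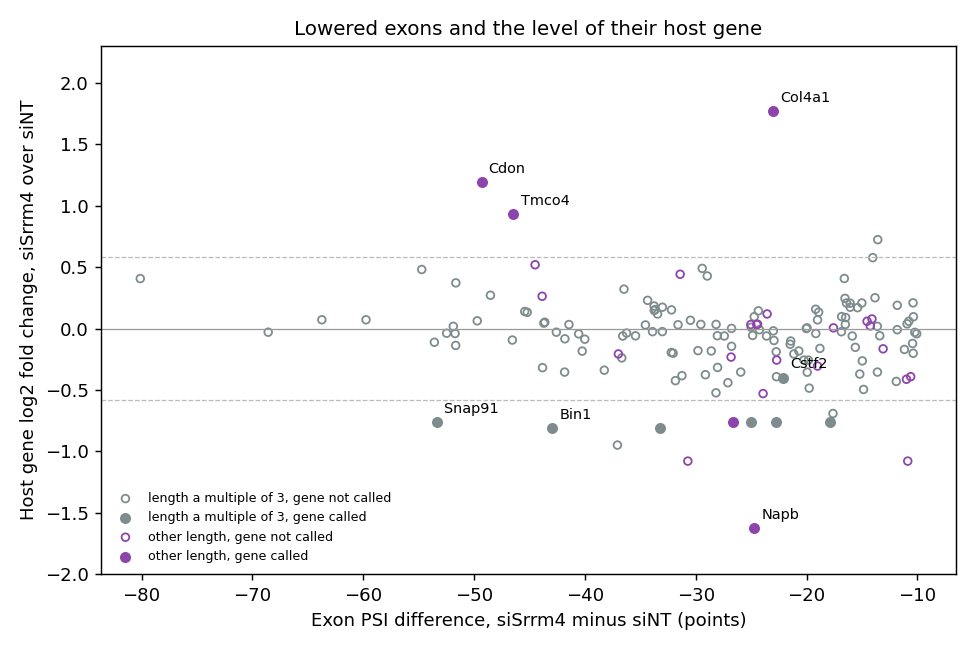
PSI difference of each lowered exon in points (x axis) against the log2 fold change of its host gene (y axis), for 157 exons. Grey circles are exons with a length that is a multiple of 3 and purple circles the others, filled where the gene was called; dashed lines mark 1.5-fold. Most genes stay within the dashed lines at any PSI difference, and the 3 called higher (Col4a1, Cdon, Tmco4) are purple.

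At the level of whole genes, 407 of 12378 were lower (3.29%) and 175 higher (1.41%) in the knockdown, 4.7% in either direction. A change of 2-fold or more was seen for 92 of the lower and 46 of the higher genes, and the unadjusted p was under 0.05 for 3072. With DESeq2 1049 were lower and 698 higher, and with the edgeR likelihood ratio test 785 and 475. The quasi-likelihood counts rest on single libraries: they were 0 and 0 without control library b or knockdown library b, 17 and 3 without control library a, and 144 and 36 without knockdown library a. In each of these fits all 582 genes kept their direction. The authors' deposited table gives an FDR under 0.05 for 1031 of the genes tested here, and all 582 are among them. Their values come from the same experiment and are not independent support. For 53.7% of all tested genes the groups did not overlap. Fewer cells of a type and less RNA per cell cannot be told apart in such bulk samples.

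Other splicing regulators were lower too. Of 32 tested tissue-regulated splicing factors 6 were lower (18.8%, beside 3.29% of all genes) and 0 higher, with a list median of -0.26 (0.00 over all genes). The 6 include Srrm4, the gene targeted. Besides Srrm4 they were Rbms3, at 53.5 and 64.9 CPM in control and 22.8 and 22.2 in the knockdown (log2 fold change -1.40), the neuronal RNA-binding genes Elavl4 (-0.89) and Elavl3 (-0.49), the progenitor gene Msi1 (-0.87) and Srrm3 (-0.62), the closest relative of Srrm4. Srrm3 stood at 35.6 and 37.5 CPM in control and 24.2 and 23.4 in the knockdown. The more distant Srrm1 and Srrm2, components of the general machinery, were at -0.34 (edgeR adjusted p = 0.0707) and -0.25 (edgeR adjusted p = 0.603) and were not called.

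Of 53 tested genes of the synaptic vesicle cycle 7 were lower (13.2%, beside 3.29% of all genes) and 0 higher (beside 1.41%). The list median was -0.23. The complexins, which clamp and trigger vesicle fusion, were both lower, Cplx2 from 105 and 92.2 CPM to 35.5 and 27.5 (log2 fold change -1.65, SE 0.14, edgeR adjusted p = 0.0178), with Cplx1 going from 323 and 344 to 159.8 and 148 (-1.12, SE 0.11). Sncg, gamma-synuclein, had the largest log2 fall of the genes named here, from 25.5 and 16.4 to 6.21 and 2.92 (-2.21, SE 0.38). Dnajc6, the auxilin that strips clathrin coats, was at -1.70 and the synapsin gene Syn1 at -0.63, next to Napb and Snap91 above. Snap91 and Napb are thus the members of this list that changed both in exon and in level.

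Further neuronal lists are set beside the 3.29% lower and 1.41% higher of all genes, among which falls also outnumbered rises. Of 39 neuronal cytoskeleton and axon genes 4 fell (10.3%), namely Reep2, an endoplasmic reticulum shaping protein (-1.73), Mtap2, the dendritic protein MAP2 (-1.07), Nefh, the heavy neurofilament chain (-0.996), and Dpysl5 (-0.57), while Stmn4, a stathmin, rose (0.97). Of 44 ion channel and transmitter receptor genes 4 fell (9.09%), among them the sodium channel gene Scn3a (-0.91), the calcium channel subunit gene Cacnb3 (-0.87) and the metabotropic GABA receptor gene Gabbr1 (-0.62). Of 41 axon guidance genes 2 fell (4.88%, near that background), the receptors Neo1 (-0.91) and Nrp2 (-0.65). Of 36 genes known as targets of the repressor REST 5 fell (13.9%) and 0 rose (list median -0.29): Cplx1, Cplx2, Nefh, Scn3a and Syn1, each of them also in a list above. Among the 14 line markers Elavl4 and Hand2 (-0.54) fell.

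The extracellular matrix list moved in both directions (list median -0.03). Of 51 genes 5 were higher (9.8%, beside 1.41% of all genes) and 4 lower (7.84%, beside 3.29%). Col28a1 rose from 0.518 and 0.522 CPM to 3.05 and 4.55 (log2 fold change 2.86, SE 0.33), Lepre1, a prolyl hydroxylase of collagen, from 17.5 and 14.6 to 39.5 and 41.9 (1.34), and the integrin genes Itga8 (1.14) and Itga7 (1.04) rose with Col4a1. Timp2 (-1.13), an inhibitor of matrix proteases, Mmp15 (-1.13), Spock2 (-0.69) and Agrn (-0.53), the agrin of synaptic basal lamina, fell. In the cell cycle list 3 of 63 were lower (4.76%, near the 3.29% of all genes; Rrm2, -0.81, Ccnd1, -0.60, and Gins2, -0.49) and the D-type cyclin gene Ccnd3 was higher, at 58.5 and 47.7 and 127 and 131 CPM (1.28). Of 32 genes of the p53 response and apoptosis 2 fell (6.25%), among them Mdm2 (-0.91), and 1 rose (3.12%). That gene, Bak1, an effector that permeabilises mitochondria, went from 37.4 and 28.9 to 82.02 and 84.5 CPM (1.33).

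Of the other genes with the largest changes, Pde9a, a cyclic GMP phosphodiesterase, stood at 8.16 and 9.33 CPM in control and 2.39 and 1.99 in the knockdown, Zfp385a at 53.3 and 40.5 and 16.3 and 9.76, and Cpne1, a calcium-dependent membrane-binding copine, at 45.4 and 38.6 and 15.4 and 9.02. The phosphoprotein gene Pea15a fell from 101.8 and 103 to 38.5 and 31.5 (log2 fold change -1.55, SE 0.12). Esx1, Trp53i11, Trim16, Dbx2 and 2610002M06Rik completed them, at -1.88 to -1.58. Several genes that rose started from a very low level: Hcrtr1, an orexin receptor, from 2.48 and 3.92 to 9.92 and 13.97 CPM, Glt8d2 from 0.669 and 0.772 to 3.47 and 4.96, and Fam92b from 0.518 and 0.459 to 2.65 and 2.52. For each of these genes the groups did not overlap, a condition for being named.

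**Figure D5:**
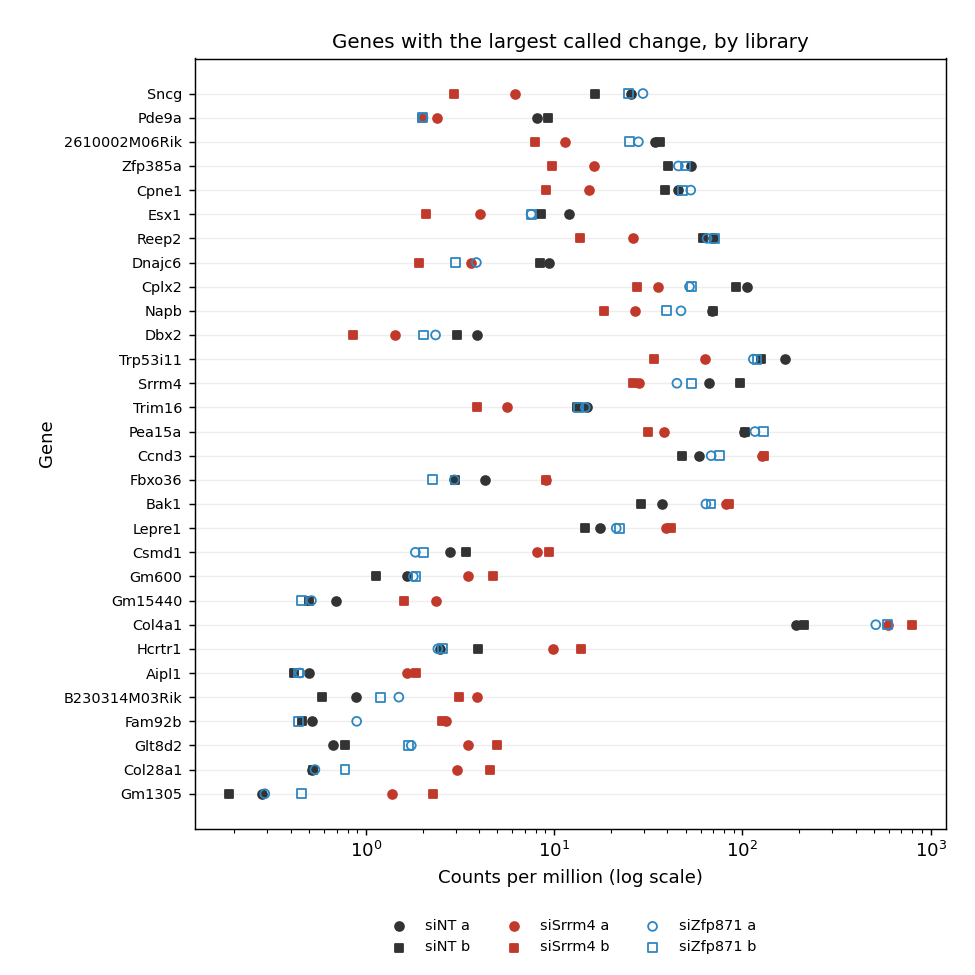
Gene level in CPM on a log scale for the 15 called genes with the largest fall and the 15 with the largest rise, by library (control in black, Srrm4 knockdown in red, Zfp871 knockdown in open blue; circles a, squares b). Col4a1 is the most abundant of those that rose, at 192 and 214 CPM in control and 592 and 793 in the knockdown.

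Few retained introns were called, and several of those called sit at a lowered exon. Of 23114 tested introns 9 were lower (0.0389%) and 2 higher (0.00865%) by limma at an adjusted p under 0.05 and 10 points. Of these 11, 5 span a lowered exon, namely the introns of Sypl, Sh3glb2, Pacsin2, Atl2 and Snx14. How many of all tested introns do so is not given here. The junction that skips the exon also joins the ends of such an intron. The intron's value and the exon's can therefore share reads and are not independent observations. The part of exon skipping in these intron values was not tested. The intron around the 15-nt exon of Sh3glb2, an endophilin, was at 87.6% and 86.2% in control and 47.3% and 47.04% in the knockdown. The 2399-nt intron directly upstream of the most affected Clasp2 exon rose from 4.92% and 11.1% to 23.7% and 42.8%. It had 109 and 183 reads in control and 26.7 and 25.7 in the knockdown. Its spliced reads are also inclusion reads of that exon, so these values are not independent either. A 196-nt intron of Prpf40b, a splicing factor, was at 0% in both control libraries (54 and 48 reads, which allow up to 5.56% and 6.25%) and at 13.01% and 27.3% in the knockdown. The lowered introns of Apbb3, Tbc1d19, 1300018I17Rik and Mll1 held no called exon. In 9 of the 11 the program's own test of even reads at both intron ends had a p-value under 0.05 in at least 1 library, and the part of uneven coverage in these values was not tested. Of 10418 alternative acceptor and donor sites limma called 0 (0.0%), with 627 at an unadjusted p under 0.05, a lowest adjusted p of 0.0502 and 214 at 10 points or more.

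Knockdown of Zfp871, a zinc finger protein, is compared with the same 2 control libraries, so its values are set beside those of the Srrm4 knockdown without a correlation. Srrm4 itself was at 44.9 and 53.7 CPM there (log2 fold change -0.73 against control, edgeR adjusted p = 0.0990), between control and the Srrm4 knockdown. Of the 158 lowered exons 143 had a Zfp871 knockdown mean between the other groups' means, and 155 lay below control, with a median of -17.0 points beside -25 in the Srrm4 knockdown. Over all 20266 tested exons 6134 lay between and 11100 below control. The 158 were chosen for a high value in the shared controls and a low one in the Srrm4 knockdown, which favours a place between and below, so these counts are a description only. The Clasp2 exon stood at 24.97% and 37.97%, the upstream Vav2 exon at 59.1% and 59.5% and the Myo5a exon at 87.1% and 87.3%. In the direct test between the knockdowns, which uses the same 2 Srrm4 knockdown libraries by which the 158 were chosen, 27 of the 158 were lower in the Srrm4 knockdown and 0 higher at an edgeR adjusted p under 0.05, beside 0.498% of all tested exons in either direction (49 lower, 52 higher); the choice of the 158 favours the direction of the 27, and leaving out 1 knockdown library gave 10 to 16. The exon of Myo5a (-28.99 points, edgeR adjusted p = 1.05e-06), that of Kif1b (-24.3, 3.25e-05) and the upstream one of Vav2 (-34.3, 0.00122) were among the 27.

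In gene level the knockdowns differed for several of the genes above. Sncg was at 29.6 and 24.8 CPM after Zfp871 knockdown, Reep2 at 64.9 and 71.3 and Cpne1 at 53.2 and 47.96, all near control, and each differed between the knockdowns (edgeR adjusted p = 0.0171, 0.0196 and 0.0112). Pde9a was at 2.01 and 2.01 and Col4a1 at 512 and 592, and for both the difference between the knockdowns did not pass the test (edgeR adjusted p = 0.732 and 0.227). The 14-nt exon of Tmco4 stood at 26.3% and 23.6% after Zfp871 knockdown, and the gene's level at 8.31 and 9.04 CPM.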

How the data were processed

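Reads per gene and per splicing event were taken from the second knockdown experiment of the series (siNT, siSrrm4 and siZfp871, 2 libraries each, mapped to groups by name). The count values are raw read counts per gene deposited by the authors, on build mm9 per the submitters' processing notes, which also list CASAVA 1.8 and edgeR; no source used here names the aligner. Inclusion and exclusion reads per event are the authors' vast-tools output, corrected for mappability, so they were rounded for the tests. The authors' deposited table also gives a PSI in percent per condition and a mark of differential splicing whose rule is not given, and their gene table a log2 fold change and an FDR (adjusted p-value) from edgeR; these were used only for comparison.

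Genes were tested with edgeR 4.0.16 (R 4.3.3; filterByExpr, TMM, quasi-likelihood test) in 1 fit over the 6 libraries, for 12378 of 21553 genes with counts. An exon was kept where all 6 libraries had 10 reads and some library's PSI lay between 2% and 98%, and was tested with edgeR on inclusion against exclusion reads, with a coefficient for each library, an inclusion coefficient for each group and a tagwise dispersion without trend. The dispersion setting was chosen after the counts of calls under several settings had been seen, with simulated data used to choose. The simulation drew each library independently, with no difference shared by libraries of the same letter, so it cannot settle the choice for these data. A call needs a Benjamini-Hochberg adjusted p under 0.05 over all features tested and, for splicing, a difference of 10 points. Introns and alternative sites (20 reads) were tested with limma 3.58.1 on log2 of (inclusion + 1)/(exclusion + 1), leaving out the first site of each event, since sites share reads. The scripts were tested on simulated data. Alternatives, among them DESeq2 1.42.0, are given in the closing section.

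Members and gene lists were chosen with earlier results of these data known. Exons named are the 40 called with the largest difference and exons of known targets, with others of a list as examples chosen after their values were seen; genes named are host genes, called list members and the 15 of each direction with the largest change, a mean of at least 1 CPM and groups that do not overlap. Exon sequences come from GENCODE M21 transcripts on GRCm38, matched without coordinates; no genome was used. A further 29 columns of per-library values were not used. Some called list members are not reported here.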

Additional observations from a re-analysis of the deposited data

How the results depend on the processing

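Results were recomputed with 1 setting changed at a time, except that some dispersion settings also changed the trend. For the named genes and exons no called value changed direction under these settings; 2804 values stayed on their side of the threshold, 410 lost a call, 101 gained one and 114 that were not called changed sign. Genes called lower and higher (407 and 175) were 1049 and 698 with DESeq2, 785 and 475 with the likelihood ratio test, 0 and 0 with only the 4 libraries, and 0 to 144 and 0 to 36 with a library left out. Srrm4 itself was at -1.59 with only the 4 libraries (edgeR adjusted p = 0.0810) and at -1.83 to -1.30 with a library left out. Among hosts of lowered exons, 4 called lower became 18 with DESeq2, 14 with the likelihood ratio test, 7 without a filter on low counts, 0 with only the 4 libraries and 0 to 3 with a library left out.

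Exons called lower, microexons among them and exons called higher (158, 95 and 11) were 75, 52 and 0 with limma. Under dispersion settings chosen after seeing the data they were 25, 18 and 0 with the common dispersion and a trend, 0, 0 and 0 with it and no trend, 43, 29 and 0 with the bias-adjusted quasi-likelihood and a trend, and 40, 27 and 0 with it and no trend. With a quasi-Poisson dispersion per exon 18 were higher, 17 with a trend and 20 in the robust form. Exons called higher numbered 3 without the PSI filter, 24 at 5 points, 5 at 15 points and 55 with the likelihood ratio test. With a library left out 108 to 135 were lower, 68 to 88 of them microexons, and 10 to 14 higher. The microexon median of -2.59 points was -0.54 without the PSI filter, -10.8 with a control PSI from 10 to 90 and -3.65 to -2.80 with a library left out. Introns lower and higher (9 and 2) were 28 and 7 with an offset of 5 reads, 35 and 10 with only the 4 libraries, and 2 to 11 and 0 to 4 with a library left out. Alternative sites (0 and 0) were 2 and 2 with the offset of 5, 2 higher with only the 4 libraries, and 0 to 1 lower and 0 to 1 higher with a library left out. The 27 exons lower than under Zfp871 knockdown were 10 to 16 with a library left out. The cause of these differences was not tested.

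No source ties the column letters a and b to shared cultures. Differences between a and b correlated over 12378 genes at 0.814 for siNT with siSrrm4, 0.735 for siNT with siZfp871 and 0.696 for siSrrm4 with siZfp871. With the letter as a replicate block, 2458 genes were lower and 2107 higher. Exons called lower, microexons among them and exons called higher were 201, 107 and 42. The block gave 21 introns lower and 6 higher, 1 alternative site higher and 32 hosts lower. With it, 42 exons were lower than under Zfp871 knockdown. The microexon median was -2.47 within letter a and -3.68 within letter b.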
